A study of Mus musculus with 12 samples.

Results

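The 9 genes described here belong to the tumour necrosis factor (TNF) receptor superfamily and its ligands: the receptor Tnfrsf12a and its ligand Tnfsf12, the receptors Tnfrsf1a, Tnfrsf1b, Ltbr, Tnfrsf21, Fas and Tnfrsf10b, and the ligand Tnfsf10. They were taken by gene symbol from a table of 55421 genes, each symbol matched 1 row, and all 9 were among the 15006 genes that passed the low-count filter. The family was chosen by the measured levels of Tnfrsf12a, which had stood out in the comparison of 29 °C with 22 °C in an earlier look at the same libraries, so the temperature differences of the members are given as a description. Calls of members in the fit over all genes are counted once, beside the share of all genes called, and support nothing here. Livers came from wild-type mice that carried tumours of E0771, a mouse mammary carcinoma line. All groups had 1 week at their housing temperature with free access to food, received E0771 cells orthotopically in a mammary fat pad, and gave livers on day 21. The groups differed in housing temperature alone by the labels: 6 °C (libraries 1 to 4), 22 °C (libraries 5 to 8, the usual animal room) and 29 °C (libraries 9 to 12, near thermoneutrality for a mouse). The labels name both Balb/C and C57Bl6/J mice for the series without assigning a strain to a library, and they give no age or sex. They do not say whether libraries are from separate animals, and errors and p-values here measure the spread between these libraries.

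TWEAK, the product of Tnfsf12, is a cytokine made largely by leukocytes, and its receptor Fn14, the product of Tnfrsf12a, is known as a growth-factor-inducible protein that is scarce in healthy liver and appears on hepatocytes and progenitor cells after injury. Receptors of this superfamily fall into those with a cytoplasmic death domain (Tnfrsf1a, Fas, Tnfrsf10b and Tnfrsf21) and those without one (Tnfrsf12a, Tnfrsf1b and Ltbr). The former can start apoptosis, through caspase 8 for Tnfrsf1a, Fas and Tnfrsf10b, and the latter bind TRAF adaptors and activate NF-kB. Hepatocytes are known for their sensitivity to Fas, and to TNF when NF-kB is blocked.

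Tnfrsf12a, Tnfrsf21 and Ltbr were picked with the temperature differences known, and other members also had differences under some fits. The sequences before the transcription starts of these 3 receptors are shown. They are from RefSeq (GRCm38.p6), which held a promoter entry for 7 of the 9 members, and are written 5′ to 3′ on the gene's strand with bases of the annotated gene left out. Capitals mark the GC box GGGCGG on either strand.
Tnfrsf12a: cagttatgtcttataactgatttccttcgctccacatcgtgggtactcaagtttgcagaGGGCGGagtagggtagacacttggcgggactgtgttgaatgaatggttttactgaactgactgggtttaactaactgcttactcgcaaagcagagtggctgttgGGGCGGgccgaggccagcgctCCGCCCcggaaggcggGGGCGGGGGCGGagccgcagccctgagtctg
Tnfrsf21: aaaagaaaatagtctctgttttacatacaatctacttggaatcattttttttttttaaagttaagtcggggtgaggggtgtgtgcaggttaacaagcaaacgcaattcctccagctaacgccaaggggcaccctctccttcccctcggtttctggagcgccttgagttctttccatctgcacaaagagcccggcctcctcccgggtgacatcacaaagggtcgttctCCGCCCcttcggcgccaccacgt
Ltbr: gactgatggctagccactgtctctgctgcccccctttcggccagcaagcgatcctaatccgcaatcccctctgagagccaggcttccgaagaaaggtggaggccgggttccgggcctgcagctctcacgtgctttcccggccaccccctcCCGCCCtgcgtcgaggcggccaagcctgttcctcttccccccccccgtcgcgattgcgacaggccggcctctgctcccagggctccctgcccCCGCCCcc
The Tnfrsf12a stretch is chr17:23677469-23677699 on the minus strand and holds 5 GC boxes in 231 bases. The Tnfrsf21 stretch is chr17:43016305-43016554 on the plus strand with 1 GC box, and the Ltbr stretch is chr6:125313886-125314135 on the minus strand with 2. Of 32851 promoter windows of 250 bases, 32.7% held a GC box on either strand. Among the other members with a promoter entry, Tnfrsf1b held 2 GC boxes, Fas 1, and Tnfrsf1a and Tnfsf10 0, so the motif was not particular to the receptors printed. The AP-1 motif TGANTCA, which 6.75% of windows hold, matched once among the members, in Fas. The NF-kB consensus (7.25% of windows) and the CArG box of serum response factor (1.47%) matched in none of the 7 windows, which says only that these letters are not in those 250 bases.

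Total counts ran from 7615585 to 19001126 per library. Levels are CPM, the count scaled to the library's TMM-adjusted total, and 3 counts in a library equal 0.151 to 0.399 CPM. Libraries 1 (6 °C), 7 and 8 (22 °C) and 9 (29 °C) stood apart from the rest: they held 10.3 to 16.3 CPM of H2-Ea-ps, a class II histocompatibility gene that C57BL/6 mice do not transcribe, and the other 8 libraries held 0 counts. The labels do not separate these 4 libraries, and whether they differ in strain was not tested. Differences are therefore also given with a term for them in the fit, called the split term. The liver label was matched by its markers, with 7 hepatocyte markers summing to 78961 CPM or more in every library, while 5 of 7 mammary and basal epithelial markers (Krt5, Csn2, Csn3, Wap and Elf5) had 0 counts in all 12. Intestinal epithelium markers summed to 464 CPM in library 11 (29 °C) and to 7.94 to 23.4 CPM in the others. The split term was also fitted without library 11.

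Tnfrsf12a was the member with the largest temperature difference, and its level was high at 29 °C alone. The 29 °C libraries 9 to 12 held 11.6, 24.6, 13.3 and 21.0 CPM. Levels at 22 °C were 1.48, 1.02, 4.98 and 5.38 CPM in libraries 5 to 8, and those at 6 °C were 4.39, 4.79, 1.67 and 3.93 CPM in libraries 1 to 4. Every 29 °C library lay above every library of the other temperatures, while the 6 and 22 °C groups overlapped. The means were 17.6 ± 6.18 CPM at 29 °C, 3.21 ± 2.28 at 22 °C and 3.69 ± 1.40 at 6 °C (SD, n = 4 each). The log2 fold change was 2.26 (SE 0.49) against 6 °C and 2.43 (SE 0.49) against 22 °C, or 2.35 (SE 0.46) and 2.73 (SE 0.51) with the split term, and these comparisons share the 29 °C libraries. Between 6 and 22 °C it was 0.16 (SE 0.50), and -0.07 without library 5 and -0.12 without library 6. The lowest 29 °C library, 9, is 1 of the 4 with H2-Ea-ps, and among those 4 it also had the highest Tnfrsf12a. Tnfrsf12a (ENSMUSG00000023905.15) spans bases 23675445 to 23677468 of GRCm38 chromosome 17, minus strand, and no other annotated gene shares its exons.

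**Figure D1:**
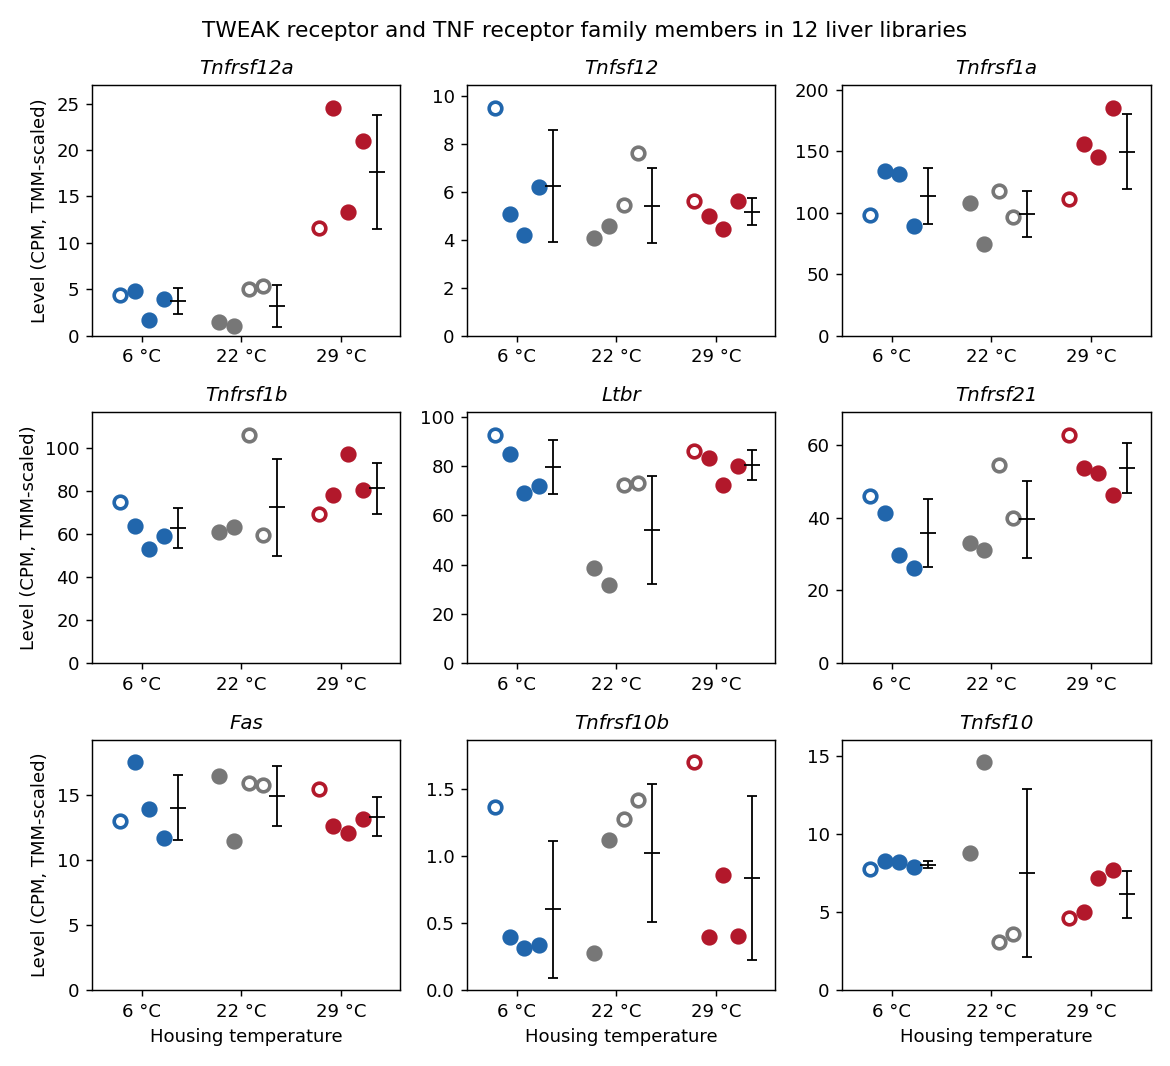
Level of each member (y axis, CPM on TMM-scaled library sizes, from 0) by housing temperature (x axis). Points are libraries, open where H2-Ea-ps was counted, and bars are the mean ± SD of 4 libraries. Tnfrsf12a at 29 °C lies between 11.6 and 24.6 CPM, above every library of the other groups, and Ltbr is low in 2 of the 22 °C libraries.

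The ligand did not follow the receptor. Tnfsf12 stood at 9.51, 5.05, 4.21 and 6.19 CPM in libraries 1 to 4 (6 °C), at 4.06, 4.58, 5.43 and 7.62 CPM in libraries 5 to 8 (22 °C) and at 5.63, 5.004, 4.43 and 5.63 CPM in libraries 9 to 12 (29 °C). The 3 groups overlapped, and the highest value was in library 1. Its log2 fold change was -0.28 (SE 0.28) for 29 °C against 6 °C, which became 0.00 without library 1, and -0.07 (SE 0.28) against 22 °C. Per kb of exon, Tnfrsf12a stood at 1.61, 3.85, 2.36 and 2.93 times the level of Tnfsf12 in libraries 9 to 12. In the other 8 libraries that ratio lay between 0.174 (library 6) and 0.743 (library 2), so that the receptor exceeded its ligand in 4 of 4 libraries at 29 °C and in 0 of 4 at 22 °C and 0 of 4 at 6 °C. Of the 1515 exon bases of Tnfsf12, 731 (48.3%) also belong to Tnfsfm13, a read-through gene on the same strand, so the level of Tnfsf12 depends on how shared reads were counted, which is not given in the sources used here.

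Both TNF receptors were plentiful. Tnfrsf1a, the widely expressed receptor with a death domain, stood at 98.2, 134, 132 and 89.3 CPM in libraries 1 to 4, at 108, 74.5, 118 and 96.5 CPM in libraries 5 to 8 and at 112, 156, 145 and 185 CPM in libraries 9 to 12. At 29 °C 3 of 4 libraries lay above all 8 others, and library 9 lay within them. The log2 fold change of Tnfrsf1a was 0.40 (SE 0.20) for 29 °C against 6 °C and 0.59 (SE 0.20) against 22 °C. Tnfrsf1b, the TNF receptor of leukocytes and endothelium, stood at 74.8, 63.4, 52.8 and 59.1 CPM in libraries 1 to 4, at 60.8, 62.9, 106 and 59.4 CPM in libraries 5 to 8 and at 69.1, 77.8, 96.9 and 80.2 CPM in libraries 9 to 12. Library 7 set the spread at 22 °C, and the groups overlapped. Its log2 fold change was 0.37 (SE 0.19) for 29 °C against 6 °C and 0.16 (SE 0.19) against 22 °C. That against 22 °C was 0.41 without library 7, and 6 °C against 22 °C went from -0.21 to 0.03 without it.

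Ltbr, the lymphotoxin beta receptor that drives the non-canonical NF-kB pathway, was low in 2 libraries. Libraries 5 and 6 at 22 °C held 38.6 and 31.6 CPM, and it lay between 69.3 and 92.7 CPM in the other 10, including 72.2 and 73.2 CPM in libraries 7 and 8 at 22 °C. The means were 79.7 ± 11.007 CPM at 6 °C, 53.9 ± 21.9 at 22 °C and 80.5 ± 5.99 at 29 °C. Both extremes of temperature thus had a higher mean than 22 °C, with log2 fold changes of 0.56 (SE 0.24) for 6 °C and 0.58 (SE 0.24) for 29 °C against the same 22 °C libraries, or 0.77 and 0.79 (SE 0.17 each) with the split term. With only the 8 libraries lacking H2-Ea-ps, where 22 °C is libraries 5 and 6 alone, these differences were 1.09 and 1.16. Hepatocyte markers summed highest in the same libraries, at 195870 and 191570 CPM in 5 and 6 against 95810 and 87884 CPM in 7 and 8, and their part in the Ltbr levels was not tested.

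Tnfrsf21, also called death receptor 6, stood at 45.9, 41.3, 29.6 and 26.1 CPM in libraries 1 to 4, at 33.0, 31.1, 54.4 and 39.8 CPM in libraries 5 to 8 and at 62.7, 53.6, 52.2 and 46.3 CPM in libraries 9 to 12. The 29 °C libraries lay above all those at 6 °C, narrowly (46.3 against 45.9 CPM), and overlapped 22 °C through library 7. In each temperature group the highest level was in a library with H2-Ea-ps counts. The log2 fold change was 0.59 (SE 0.21) against 6 °C and 0.44 (SE 0.21) against 22 °C, or 0.60 and 0.58 (SE 0.15 each) with the split term.

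The TRAIL and Fas systems showed no like pattern. Fas stood between 11.5 and 17.5 CPM in all 12 libraries, with means of 14.1 ± 2.50 at 6 °C, 15.0 ± 2.32 at 22 °C and 13.4 ± 1.496 at 29 °C, and overlapped fully. The differences of Fas lay between -0.16 and -0.07 on the log2 scale with SEs of 0.17. Tnfrsf10b, the death receptor for TRAIL in mouse, was barely detected, with 3 to 22 counts per library. At 6 °C library 1 held 1.37 CPM and the other libraries 0.318 to 0.399 CPM. Levels at 22 °C were 0.277, 1.12, 1.28 and 1.42 CPM in libraries 5 to 8, and those at 29 °C were 1.70, 0.398, 0.855 and 0.407 CPM in libraries 9 to 12. The highest value in each group was in a library with H2-Ea-ps counts, and 29 °C against 6 °C went from a log2 fold change of 0.41 (SE 0.68) to -0.15 without library 9. Tnfsf10, the ligand TRAIL, stood at 7.78 to 8.24 CPM in the 4 libraries at 6 °C, at 8.77, 14.6, 3.06 and 3.58 CPM in libraries 5 to 8, and at 4.63, 5.004, 7.20 and 7.66 CPM in libraries 9 to 12. Its 6 °C values were close together and just above all those at 29 °C, and 22 °C spanned both. The log2 fold change was -0.39 (SE 0.40) for 29 °C against 6 °C and -0.28 (SE 0.40) against 22 °C, and the latter was 0.27 without library 6.

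In edgeR's fit over all genes, 1 of 9 members (Tnfrsf12a) had an adjusted p under 0.05 for 29 °C against 6 °C, where 2.53% of all tested genes did. With the split term 2 of 9 did (Tnfrsf12a and Tnfrsf21), where 12.6% of all genes did. For 29 °C against 22 °C, 0 of 15006 genes were called (0%), although 2241 had an unadjusted p under 0.05 and DESeq2 called 325. With the split term 3.44% of genes were called there, among them 2 of 9 members, Tnfrsf12a and Ltbr, of which Ltbr was not called once library 11 was also left out. For 6 °C against 22 °C, 0.0333% of genes were called (5, with 1787 at an unadjusted p under 0.05 and 178 by DESeq2) and 0 of 9 members, and with the split term 0.367% and again 0 of 9. Groups did not overlap for 3 of 9 members at 29 against 6 °C (13.3% of all genes), for 1 of 9 at 29 against 22 °C (7.68%) and for 0 of 9 at 6 against 22 °C (6.33%). Because the members were chosen with these values known, nothing is read from the counts. The call of Tnfrsf12a at 29 against 6 °C was absent without a low-count filter and without library 1, 2, 3, 4, 10, 11 or 12. Its log2 fold change was then 2.27 without the filter and 2.37, 2.39, 2.01, 2.30, 2.06, 2.38 and 2.17 without those libraries in turn.

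**Figure D2:**
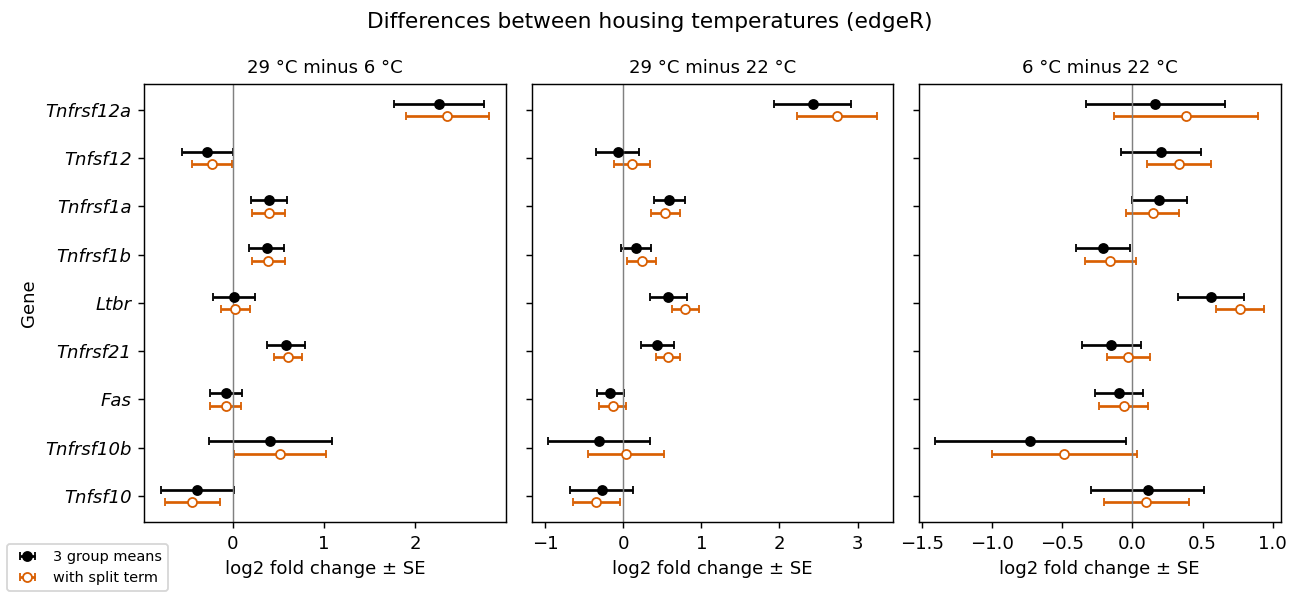
Log2 fold change ± SE (x axis) of each member (y axis) in the 3 comparisons of housing temperature, from the fit of 3 group means (filled) and from the fit with the split term (open). Tnfrsf12a lies at 2.26 and 2.43 in the comparisons of 29 °C, Ltbr is above 0 at both extremes against 22 °C, and Fas lies near 0 in all 3.

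To compare levels between genes, CPM were divided by exon length in kb. Tnfrsf1a had the highest level per length (46.6 ± 12.1 CPM per kb, SD over 12 libraries), followed by Ltbr (30.3 ± 7.84), Tnfrsf1b (18.8 ± 4.22), Tnfrsf21 (10.5 ± 2.80) and Fas (6.85 ± 0.998). Below them came Tnfrsf12a (4.23 ± 4.05), Tnfsf12 (3.70 ± 1.04), Tnfsf10 (1.37 ± 0.576) and Tnfrsf10b (0.151 ± 0.0964). The ranges of neighbours in this order overlapped, except for Tnfsf10 and Tnfrsf10b, but within libraries the order was steadier. Tnfrsf1b exceeded Tnfrsf21, Tnfrsf21 exceeded Fas, and Tnfsf12 exceeded Tnfsf10 in 12 of 12 libraries, and Tnfrsf1a exceeded Ltbr, and Ltbr exceeded Tnfrsf1b, in 11 of 12. Tnfrsf12a and Fas, and Tnfrsf12a and Tnfsf12, did not keep 1 order. By group means per kb Tnfrsf12a ranked 7 of 9 at 6 °C and at 22 °C and 5 of 9 at 29 °C, where it stood at 9.12 ± 3.20 CPM per kb against 6.48 ± 0.725 for Fas and exceeded Fas in 3 of 4 libraries.

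**Figure D3:**
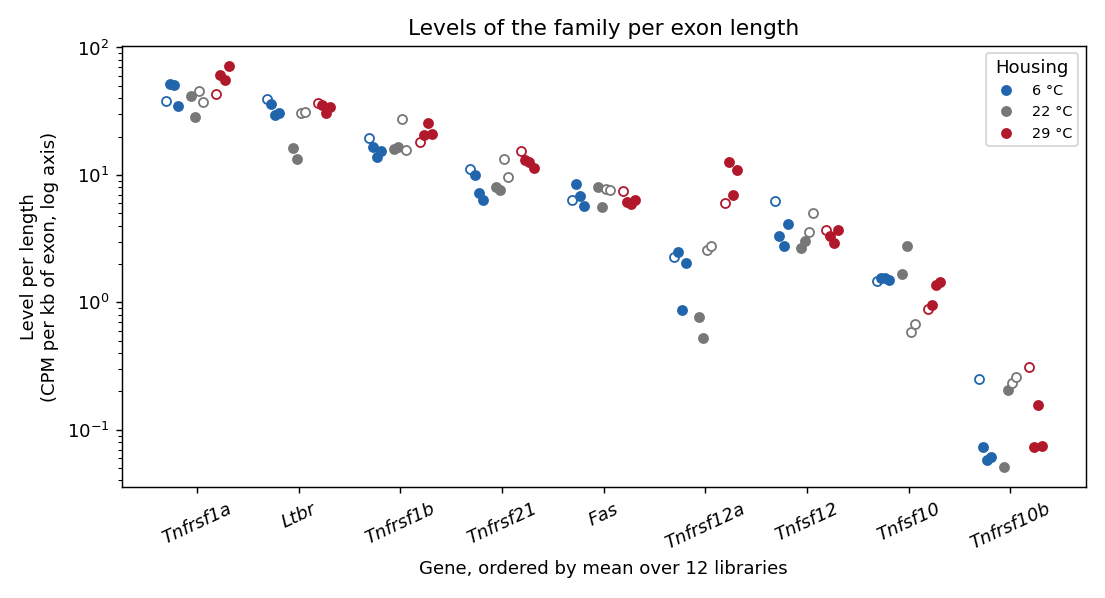
Level per length (y axis, CPM per kb of exon, log axis) of each member in 12 libraries, ordered by mean. Points are libraries, coloured by housing temperature and open where H2-Ea-ps was counted. Levels span from 0.151 (Tnfrsf10b) to 46.6 (Tnfrsf1a) on average, and Tnfrsf12a moves from rank 7 at 6 and 22 °C to 5 at 29 °C, past Tnfsf12 and Fas.

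Among 11311 tested genes whose mean log2 CPM reached 1 and whose symbol was regular, the 5 whose log2 CPM over the 12 libraries was most like that of Tnfrsf12a were Gnb2, Rhob, Chst15, St6galnac4 and Ube2j2. They are not set apart from the rest, as 46 of the 11311 had a Pearson r over 0.9 and the next gene had 0.94. Gnb2 encodes a G-protein beta subunit (Pearson r = 0.96, n = 12) and Rhob a small GTPase of the actin cytoskeleton (r = 0.96). Chst15 is a sulfotransferase of chondroitin sulfate (r = 0.95), St6galnac4 a sialyltransferase (r = 0.95) and Ube2j2 a ubiquitin-conjugating enzyme of the endoplasmic reticulum (r = 0.94). These r are given without a p because the genes were picked for them, and the points share depth and the split of the libraries. Without libraries 6 and 10, the farthest from the Tnfrsf12a median, they were 0.93, 0.93, 0.95, 0.92 and 0.91, and over the 8 libraries lacking H2-Ea-ps 0.97, 0.99, 0.96, 0.96 and 0.98. All 5 spanned less than Tnfrsf12a, and none was called at 29 against 6 °C in edgeR's fit of 3 group means (adjusted p from 0.0541 for Chst15 to 0.179 for Gnb2). Rhob stood at 88.0 ± 24.3 CPM at 29 °C, 46.7 ± 21.8 at 22 °C and 45.4 ± 10.3 at 6 °C, and St6galnac4 at 8.87 ± 1.49, 3.20 ± 1.77 and 3.38 ± 1.41 CPM in the same order. In libraries 5 and 6 Rhob stood at 27.8 CPM each, its lowest values, and Tnfrsf12a was lowest there too.

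**Figure D4:**
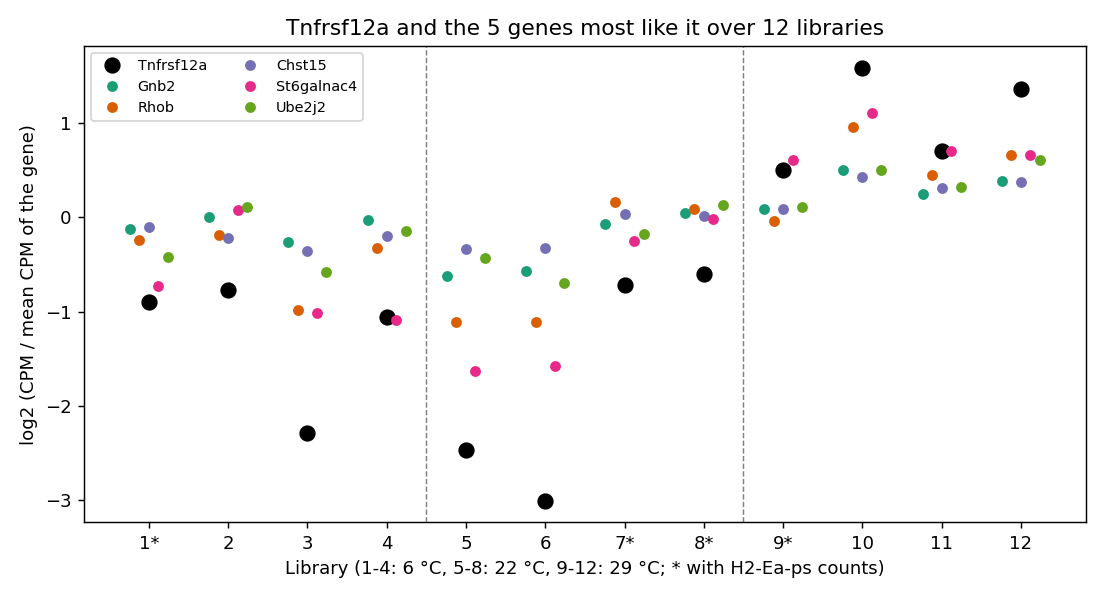
Log2 of CPM over the gene's mean CPM (y axis) in each library (x axis; dashed lines part the temperatures, asterisks mark libraries with H2-Ea-ps counts) for Tnfrsf12a (large points) and the 5 genes most like it by Pearson r (0.94 to 0.96, n = 12). Every gene is highest in library 10 or 12 and low in libraries 3, 5 and 6, and Tnfrsf12a spans the widest range.

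The genes around the receptors were read from 8 lists by role, in edgeR's fit over all genes with Benjamini-Hochberg adjustment. The lists were written with earlier results of these data known, so their counts, signs and medians are a description. Of 117 tested genes on the lists, 4 rose at 29 °C relative to 6 °C and 0 fell, and 0 were called at 29 °C against 22 °C or at 6 °C against 22 °C (all 15006 genes: 1.13% higher and 1.39% lower at 29 than at 6 °C). With the split term, under which 12.6% of all genes were called at 29 against 6 °C, 17 of the 117 rose and 5 fell, the latter being Cyld, Cflar, Sod2, Irf1 and Ccng1. That fit called 5 higher and 1 lower (Tab2) at 29 against 22 °C, and 0 higher and 1 lower (Tab2) at 6 against 22 °C. Other superfamily members were mostly scarce: 13 of 21 other TNF receptors and 5 of 16 other ligands passed the low-count filter, and Cd70 had 0 counts in all libraries. Of the 13 receptors, 0 passed at 29 against 6 °C (1 with the split term, Cd27, higher), with a median log2 fold change of 0.29 beside 0.001 over all tested genes. Cd27, a T-cell costimulatory receptor, stood at 1.23 ± 0.422 CPM at 29 °C and 0.446 ± 0.114 at 6 °C (log2 fold change 1.46, adjusted p = 0.0957, edgeR), and differed by 0.94 from 22 °C (adjusted p = 0.325). Tnfrsf26 had a difference of 1.12 (adjusted p = 0.115), Tnfrsf13b, a B-cell receptor for BAFF and APRIL, of 1.08 (0.242), and Relt of 0.92 against 22 °C (0.399). Of the 5 ligands 0 passed (1 with the split term, Ltb, higher): Ltb, which pairs with lymphotoxin alpha to bind Ltbr, differed by 1.11 (adjusted p = 0.111), Eda by -0.99 (0.179) and Tnf itself by 1.03 (0.356) at 29 against 6 °C, and against 22 °C Tnf differed by 0.63 (0.641) and Tnfsf14, another Ltbr ligand, by 0.76 (0.494). Without library 9, which held 3.78 CPM of Tnf against 0.682 to 1.71 in libraries 10 to 12, Tnf differed by 0.47 from 6 °C and by 0.06 from 22 °C, and Tnfsf14 differed by 0.46 without library 5.

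Downstream of the receptors, Casp8, the initiator caspase recruited by death domains, rose at 29 °C relative to 6 °C and was the 1 of 14 death effectors and inhibitors that passed. Of all tested genes, 1.13% were called higher and 1.39% lower there. Casp8 levels were 32.3, 36.1, 36.3 and 35.1 CPM in libraries 9 to 12 and 21.5, 21.8, 23.4 and 16.8 CPM in libraries 1 to 4. These groups did not overlap, as was so for 13.3% of all tested genes. Casp8 had a log2 fold change of 0.75 (SE 0.15, adjusted p = 0.0238, edgeR). Its call was lost without library 3 (adjusted p = 0.0516), 4 (0.0713), 10 (0.079), 11 (0.0624) or 12 (0.0517). Ripk3, the kinase of necroptosis, stood at 7.44 ± 1.95 against 3.55 ± 1.15 CPM (1.08, adjusted p = 0.0754) and Apaf1, the apoptosome scaffold, at 27.0 ± 9.43 against 13.9 ± 3.93 CPM (0.95, adjusted p = 0.135). Against 22 °C Ripk3 differed by 0.97 (adjusted p = 0.211) and Dffa, the inhibitor of the apoptotic nuclease, by 0.44 (adjusted p = 0.245). The list's median was -0.01, with 7 members above 0 and 7 below. With the split term, under which 12.6% of all genes were called, 4 of 14 passed. Casp8, Apaf1 and Ripk3 were higher and Cflar, the caspase 8 inhibitor c-FLIP, was lower.

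Of 20 adaptors and ubiquitin ligases, 0 passed at 29 against 6 °C (1 with the split term, Cyld, lower), with a median of -0.03. The deubiquitinase Cyld, which restrains NF-kB, had 31.3 ± 3.79 CPM at 29 °C and 40.5 ± 1.18 at 6 °C (a difference of -0.37, adjusted p = 0.101), and Map3k7 (-0.32, adjusted p = 0.278) and Xiap (-0.20, adjusted p = 0.440) had smaller differences. Against 22 °C, Tab2, a partner of Map3k7, differed by -0.55 (adjusted p = 0.191) and Rbck1, a subunit of the linear ubiquitin ligase, by 0.47 (adjusted p = 0.197). Of 17 NF-kB subunits, kinases and inhibitors 0 passed in either fit (median 0.11), among them Ikbkb (-0.28, adjusted p = 0.223), Rela (0.25, adjusted p = 0.328) and Nfkbia (0.27, adjusted p = 0.401), and against 22 °C Bcl3 (0.76, adjusted p = 0.267) and Relb (0.79, adjusted p = 0.297). Of 14 tested NF-kB target genes 0 passed (median 0.35), and with the split term 3 did (12.6% of all genes), Il1b higher and Sod2 and Irf1 lower. The superoxide dismutase gene Sod2 differed by -0.54 (adjusted p = 0.0649), the cytokine gene Il1b by 1.06 (adjusted p = 0.0721) and the transcription factor gene Irf1 by -0.44 (adjusted p = 0.132), and against 22 °C Il1b differed by 0.94 (adjusted p = 0.211) and the adhesion molecule gene Vcam1 by 0.58 (adjusted p = 0.273).

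Of the growth-factor-induced genes, a class in which Fn14 itself was first described, 2 of 17 rose at 29 °C relative to 6 °C. In that comparison 1.13% of all tested genes were called higher. Thbs1, which encodes the matrix protein thrombospondin 1, stood at 26.0, 60.5, 32.9 and 40.6 CPM in libraries 9 to 12 and at 8.57, 14.2, 18.8 and 9.79 CPM in libraries 1 to 4 (log2 fold change 1.64, SE 0.28, adjusted p = 0.0154, or 0.0522 without library 4). Plaur, the urokinase receptor, stood at 13.7, 13.2, 9.21 and 12.6 CPM in libraries 9 to 12 and at 4.68, 5.05, 3.89 and 2.51 CPM in libraries 1 to 4 (log2 fold change 1.596, SE 0.29, adjusted p = 0.0197). The call of Plaur was lost without library 3 (adjusted p = 0.058), 4 (0.0584) or 10 (0.0696). Neither gene overlapped between 29 and 6 °C, as was so for 13.3% of all tested genes. The other 15 of 17 tested members did not pass, among them Vim (0.85, adjusted p = 0.0645), and all 17 fold changes were positive, with a median of 0.69. The list was written with earlier results of these data known, so its shared sign is no independent result. With the split term 10 of the 17 passed, all of them higher, where 12.6% of all genes were called. Against 22 °C 0 of 17 passed and 16 were positive (median 0.58), with Tubb6 at 15.8 ± 2.70 against 7.95 ± 1.90 CPM (0.98, adjusted p = 0.147) and Thbs1 at 0.99 (adjusted p = 0.169).

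Of 17 p53 and CHOP target genes, Pmaip1, which encodes the BH3-only protein Noxa, rose at 29 °C relative to 6 °C, at 5.63, 7.39, 8.60 and 7.79 CPM in libraries 9 to 12 against 2.59, 3.85, 3.10 and 1.76 CPM in libraries 1 to 4. The groups did not overlap, as was so for 13.3% of all tested genes at 29 against 6 °C, where 1.13% were called higher. For Pmaip1 the log2 fold change was 1.39 (SE 0.28, adjusted p = 0.0250, edgeR). Its call was lost without library 3 (adjusted p = 0.0658), 4 (0.0751), 10 (0.0816), 11 (0.0696) or 12 (0.0589). Atf3, a stress-induced transcription factor gene with 84.2 CPM in library 10, stood at 30.6 ± 36.3 against 3.38 ± 0.970 CPM (3.19, adjusted p = 0.0623, and 1.92 without library 10) and the cell cycle inhibitor Cdkn1a at 51.4 ± 25.4 against 10.3 ± 6.35 CPM (2.33, adjusted p = 0.0775). Against 22 °C, Pmaip1 (1.03, adjusted p = 0.166) and Ccng1 (-0.44, adjusted p = 0.255) did not pass. The list's median was 0.19. With the split term 2 of 17 passed at 29 against 6 °C, Pmaip1 higher and Ccng1 lower, where 12.6% of all genes were called.

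**Figure D5:**
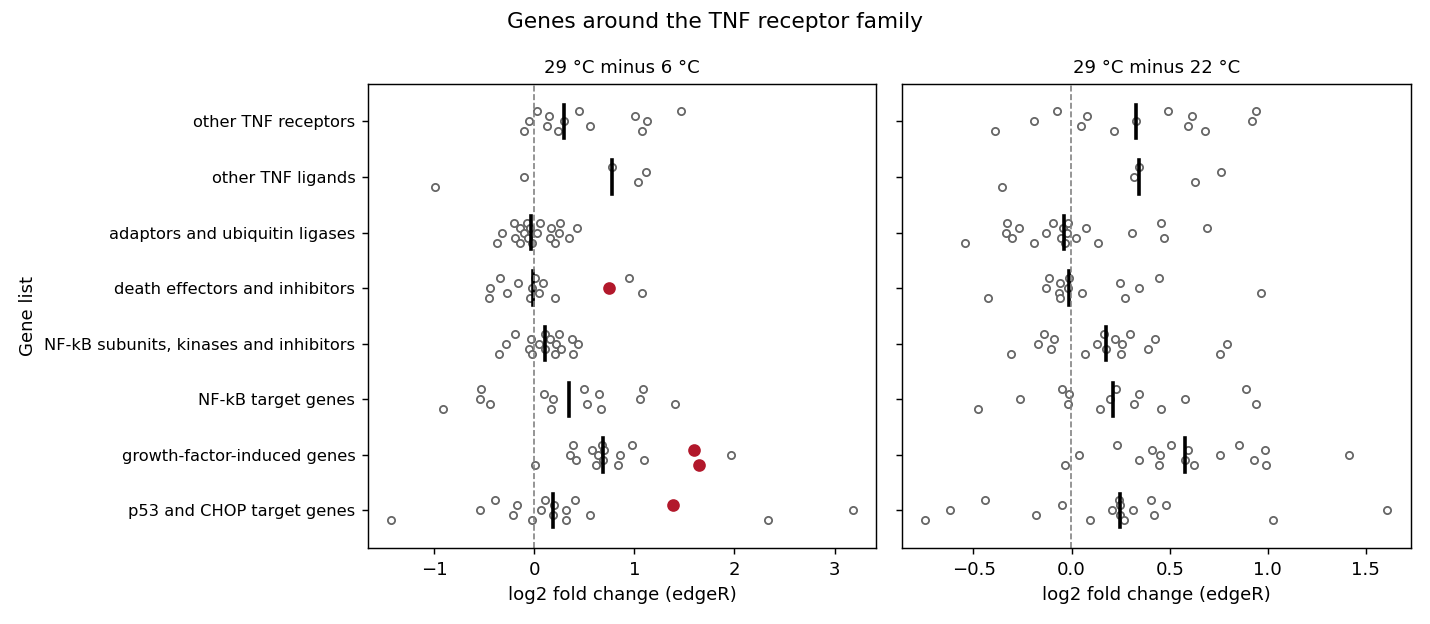
Log2 fold change (x axis) of the tested genes of 8 lists (y axis) at 29 °C against 6 °C (left) and 29 °C against 22 °C (right). Red points are genes with an adjusted p under 0.05 (4 on the left, 0 on the right), black bars are list medians and the dashed line is the median of all tested genes. The growth-factor-induced list has all 17 genes above 0 on the left, with a median of 0.69. The lists were written with earlier results of these data known.

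Marker sums of other cells varied between libraries, mostly with overlap between the temperatures, and their part in the levels was not tested. In bulk liver fewer cells of a type and less RNA per cell cannot be told apart. Kupffer cell and macrophage markers (10 of 10 tested, 0 called) summed to 581 to 1296 CPM at 29 °C, 394 to 1082 at 22 °C and 486 to 889 at 6 °C. Neutrophil markers (10 of 10 tested, 0 called) summed to 580 to 2577 CPM at 29 °C, 390 to 1561 at 22 °C and 30.9 to 832 at 6 °C, with the highest sum in library 9, where Tnfrsf12a was lowest of the 29 °C group. Monocyte markers (6 of 6 tested, 1 called, higher) summed to 80.6 to 169 CPM at 29 °C, 68.0 to 137 at 22 °C and 22.1 to 86.1 at 6 °C. That call was at 29 against 6 °C, where 1.13% of all tested genes were called higher. Cholangiocyte markers (7 of 7 tested, 0 called) summed to 35.9 to 91.8 CPM at 29 °C, 47.7 to 57.5 at 22 °C and 36.3 to 63.6 at 6 °C. Their highest sum was in library 11, and the other 29 °C libraries held 35.9 to 57.6 CPM. Library 11 also had the highest sum of intestinal epithelium markers (464 CPM), and a link was not tested. Stellate and fibroblast markers (8 of 8 tested, 0 called) summed to 437 to 663, 517 to 784 and 360 to 857 CPM at 29, 22 and 6 °C. Sinusoidal endothelial markers (8 of 8 tested, 0 called) summed to 482 to 631, 458 to 665 and 404 to 557 CPM in the same order. T and NK cell markers (5 of 9 tested, 0 called) summed to 12.7 to 16.2 CPM at 29 °C, 5.91 to 15.6 at 22 °C and 7.49 to 11.5 at 6 °C, without overlap between 29 and 6 °C (as for 13.3% of single tested genes). B cell markers (4 of 5 tested, 0 called) summed to 3.01 to 10.5, 3.70 to 9.87 and 2.74 to 9.79 CPM in the same order. Erythroid markers (7 of 7 tested, 0 called) summed to 100 to 384 CPM at 29 °C, 60.1 to 117 at 22 °C and 94.1 to 196 at 6 °C. Some sums parted by H2-Ea-ps across the temperatures. Neutrophil sums were 832 to 2577 CPM in the 4 libraries with H2-Ea-ps counts and 30.9 to 811 CPM in the other 8. Stellate and fibroblast sums were also higher in those 4 (617 to 857 against 360 to 602 CPM), and B cell sums were lower (2.74 to 4.18 against 5.15 to 10.5 CPM). Of the marker lists with a tested gene, every gene was counted in at least 1 library, so none was at 0 throughout.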

How the data were processed

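Per the labels' protocols, total liver RNA was depleted of ribosomal RNA and sequenced, which gave 12 libraries. What the authors deposited is 1 table of raw, unnormalized read counts with 1 row per gene. Tools named in the submitters' processing notes, with no role or order, are bcl2fastq, STAR 2.6.1a and DESeq2 1.44.0, with the build GRCm38. How reads were counted, and whether by strand, is not given in the sources used here. Columns were matched to samples through the library names in the descriptions.

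The counts went unchanged into edgeR 4.0.16 under R 4.3.3 (TMM, filterByExpr by group, robust quasi-likelihood fit of 3 group means, two-sided, Benjamini-Hochberg over 15006 genes, threshold 0.05), without covariates. The split term marks a library holding 1 CPM of H2-Ea-ps or more, a division made from the data. SEs are the fold change over the root of F. Likeness used log2 CPM with a prior count of 2. Positions and exon lengths came from GENCODE vM21. Code was tested on simulated data. All 18 replicate pairs differed beyond counting error (chi-square over its degrees of freedom from 12.7 to 136).

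The members, gene lists and alternatives were chosen with earlier results of these data known. Members were always named, then the 5 genes most like Tnfrsf12a, then in each list the 3 genes with the lowest p at 29 against 6 °C and the 2 with the lowest at 29 against 22 °C. Alternatives were DESeq2 size factors, no low-count filter, DESeq2 1.42.0, the 8 libraries compared, the split term (also without library 11), the 8 libraries lacking H2-Ea-ps, and leaving out each library.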

Additional observations from a re-analysis of the deposited data

Results flagged for a closer look

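Across 180 groups of 4 libraries (members, other named genes and marker sums), 13 had 1 library far from the other 3, with a gap to the nearest that took up most of the range (Dixon's criterion). Chance alone flags about 1 in 20 groups. Among the members these were Tnfrsf1b in library 7 at 22 °C (106 CPM against 59.4 to 62.9), Tnfrsf10b in library 1 at 6 °C (1.37 CPM against 0.318 to 0.399) and Fas in library 6 at 22 °C (11.5 CPM against 15.8 to 16.5). At 6 °C, library 2 was high in Relt (5.18 CPM against 2.09 to 2.38) and Bcl3 (75.8 CPM against 32.2 to 37.8), and library 1 low in Tab2 (67.3 CPM against 101 to 102). At 22 °C, library 8 was high in Cd27 (0.896 CPM against 0.509 to 0.575). At 29 °C, library 10 was high in St6galnac4 (11.1 CPM against 7.87 to 8.40) and Ripk3 (10.3 CPM against 6.29 to 6.71), and library 12 in Dffa (25.3 CPM against 17.8 to 18.5) and Irf1 (49.3 CPM against 36.2 to 38.4). Neutrophil markers summed to 2580 CPM in library 9 against 580 to 811 in the other 29 °C libraries, and intestinal markers to 464 CPM in library 11 against 11.2 to 13.8.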

How the results depend on the processing

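Numbers of called genes moved with single libraries, with the treatment of the 4 libraries holding H2-Ea-ps and with the test. Under all 19 alternatives the log2 fold change of Tnfrsf12a at 29 °C stayed between 2.01 and 2.54 against 6 °C. Against 22 °C it ranged more widely, between 2.14 and 3.95. For 29 against 6 °C the count of 379 genes became 1196 with DESeq2, 1884 with the split term, 1305 with it and no library 11, and 1504 in the 8 libraries lacking H2-Ea-ps, and 41 to 439 when libraries were left out in turn (67, 47, 211, 41, 71 and 149 without libraries 3, 4, 9, 10, 11 and 12). In the same order the count of 4 list genes became 17, 22, 17 and 18, and 0 to 6 with libraries left out (1, 0, 1, 2 and 2 without libraries 3, 4, 10, 11 and 12). For 29 against 22 °C the count of 0 became 15 without a low-count filter, 325 with DESeq2, 516 with the split term, 100 with it and no library 11, 2594 in the 8 libraries, and 0 to 78 with libraries left out (78 without library 9, 3 without library 7). List genes went from 0 to 3 with DESeq2, 6 with the split term and 18 in the 8 libraries. For 6 against 22 °C the 5 calls became 178 with DESeq2, 3 in the 8 libraries compared, 55 with the split term, 36 with it and no library 11, 1015 in the 8 libraries lacking H2-Ea-ps, and 3 to 7 with libraries left out. List genes went from 0 to 2, 1, 1 and 7 with DESeq2, the split term, the split term and no library 11, and the 8 libraries lacking H2-Ea-ps. In those 8 libraries Tnfrsf12a differed by 3.95 at 29 against 22 °C and by 1.41 at 6 against 22 °C, moved from 2.43 and 0.16 in the fit of 3 group means. There 22 °C is libraries 5 and 6 alone, where Tnfrsf12a was lowest. The cause of these moves was not tested. No named list gene changed direction in the comparison with 29 °C it was named for, and each member except Tnfrsf1a changed sign under some alternative in a comparison where it was not called. No paired analysis was possible because the groups share no library number. Tnfrsf10b, at 3 to 22 counts, is the member that depth limits most.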
